A study of Rattus norvegicus with 6 samples.

Results

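Expression of neuregulin 1 (Nrg1), of the receptors Egfr, Erbb2 and Erbb3 and of the EGF-type ligands Egf, Tgfa, Hbegf and Areg was followed in ovaries of newborn and young rats with 6 Affymetrix arrays of the Rat Genome U34 design, Set A, on which a probe set is a group of short probes that reads 1 transcript or several similar ones. These 8 genes were found by symbol. Every probe set that the array's annotation ties to exactly 1 symbol, equal to one of them, was taken, which gave 17 of the 8799 probe sets on the array. Nrg1 has 7 of these, Erbb3, Egf and Hbegf have 2 each, and the other genes have 1 each. The arrays formed 3 groups of 2: ovaries of female pups removed at birth (P0), ovaries removed on postnatal day 4 (P4), and ovaries removed at birth and kept for 7 days in serum-free medium on floating filters (cultured). The culture medium held albumin, transferrin, insulin and ascorbic acid. No label gives a strain, genotype or transgene, each array held RNA of about 20 pooled ovaries, and both pools of a group are described as independent. The series design text also names progesterone-treated cultures. No label of a sample mentions the hormone, so both cultured arrays were taken as replicates of 1 condition and whether either was treated is unsettled.

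The ErbB receptors are a family of membrane tyrosine kinases that signal as pairs. EGF, TGF-alpha, amphiregulin and HB-EGF bind the EGF receptor, HB-EGF also binds ErbB4, and neuregulin 1 binds ErbB3 and ErbB4. ErbB2 has no known soluble ligand and serves as the preferred partner of the others, while ErbB3 has a weak kinase and signals mainly through such a partner. The ligands are made as membrane-bound precursors that proteases release, and the activated receptors feed the RAS-MAPK, PI3K-AKT and JAK-STAT routes. In the adult ovary, amphiregulin and related ligands of granulosa cells relay the ovulatory luteinizing hormone signal to the cumulus cells and oocyte.

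The values are linear probe set intensities in array units, with a median of 40 over the table, and they were compared on the log2(intensity + 7.7) scale, which understates the change of dim probe sets. Probe sets whose mean log2 value was under the 30th percentile were not tested, which left 6118 for the tests and 10 of the 17 described here: 5 of Nrg1, both of Erbb3, and 1 each of Erbb2, Egf and Tgfa. The table has no detection calls, so intensities were set beside the highest reading on any array of 23 controls to which no transcript had been added, which was 20. Replicate arrays correlated at 0.962, 0.969 and 0.965 across probe sets for P0, P4 and cultured ovaries. Beta-actin controls read 1.75 to 2.23 times brighter at the 3′ end than at the 5′ end, a sign of RNA integrity, and the GAPDH 3′ control of P0 replicate 1 read 1324.2 against 2162.3 to 2775.1 on the other arrays. Ovarian identity was checked on marker genes: all 6 measured oocyte markers and all 8 granulosa and pregranulosa markers exceeded 20 on at least 1 array. The granulosa markers Inhbb and Cyp19a1 did so at P4 only.

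Nrg1 messenger RNA read higher at P4 than at birth on the 4 of its 7 probe sets that exceeded 20 on every array, by ratios of mean intensity of 1.80 to 3.24, although only 1 of them passed the test. That was U02320_s_at, which rose by 1.54 on the log2 scale. The cultured ovaries read above P0 on the same 4 probe sets with wider spread between replicates, and none of these differences passed. The other 3 Nrg1 probe sets were at or below the unspiked controls on 1 or more arrays. Of the 10 tested probe sets of the family, 1 rose between P0 and P4, none fell and 9 did not pass. Over all 6118 probe sets, 1.08% were called in this comparison, with 0.85% called higher and 0.229% lower.

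On U02320_s_at the intensity was 46.5 and 30.3 at P0, 132.6 and 116.1 at P4, and 59.8 and 101.9 in culture. Both P4 arrays stood above both cultured arrays, and these above both P0 arrays. Mean intensities were 38.4 ± 11.5, 124 ± 11.7 and 80.9 ± 29.8 for P0, P4 and cultured ovaries (SD, n = 2 each). The log2 change from P0 to P4 was 1.54 (SE 0.29, 95% interval 0.88 to 2.20, limma adjusted p = 0.0453). Within the pairs of P0 and P4 arrays that share a chip identifier batch, the log2 difference was 1.37 for batch A and 1.70 for batch B. In a limma fit to the P0 and P4 arrays only, with that batch as a block, the adjusted p was 0.00309. The call ended without any 1 of the 6 arrays: the adjusted p was 0.0632 and 0.225 without P0 replicates 1 and 2, 0.205 and 0.0989 without P4 replicates 1 and 2, and 0.0651 and 0.0664 without cultured replicates 1 and 2. It also ended with quantile normalization (adjusted p = 0.0549), without the filter (0.0967), without a variance trend (0.0812) and with only the P0 and P4 arrays in the fit (0.0678).

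On U02322_s_at the intensity was 28.7 and 43.0 at P0, 102.0 and 94.7 at P4, and 59.7 and 97.7 in culture. Again both P0 arrays were lowest, while the ranges of P4 and cultured arrays overlapped. The log2 change from P0 to P4 was 1.30 (SE 0.28, 95% interval 0.67 to 1.94, limma adjusted p = 0.0698, or 0.0109 with the batch block), at 1.59 in batch A and 1.01 in batch B.

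The remaining bright pair, U02315_at and U02315_g_at, derives from 1 database sequence, so they are not independent readings. U02315_at read 50.6 and 41.4 at P0, 119.8 and 112.8 at P4, and 76.9 and 140.3 in culture. P4 and cultured arrays overlapped and all stood above P0. Its log2 change from P0 to P4 was 1.21 (SE 0.29, 95% interval 0.57 to 1.85, limma adjusted p = 0.0948, or 0.00856 with the block), with 1.13 and 1.30 in batches A and B. U02315_g_at read 47.2 and 48.3 at P0, 88.5 and 83.5 at P4, and 54.7 and 113.0 in culture. This was the smallest shift of the 4, with a log2 change of 0.76 at P4 (SE 0.31, 95% interval 0.07 to 1.44, limma adjusted p = 0.327, or 0.0618 with the block). With the block, fitted without the cultured arrays, 3 Nrg1 probe sets were therefore called higher at P4. In that fit 3.17% of all tested probe sets were called higher and 5.13% either way.

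**Figure D1:**
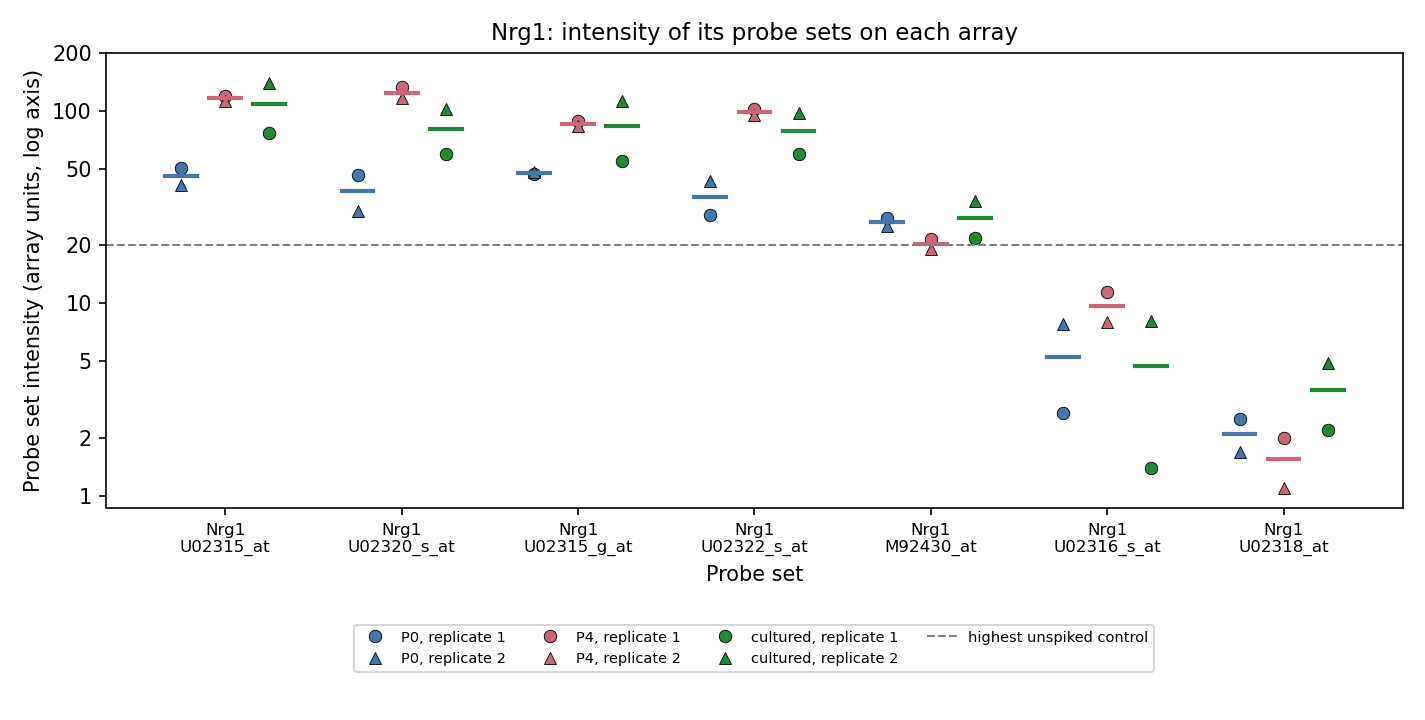
Intensity of the 7 Nrg1 probe sets (x axis) on each array, in array units on a log axis. Circles and triangles are replicates 1 and 2, coloured bars are group means, and the dashed line marks 20, the highest reading of the unspiked controls. On the 4 bright probe sets at the left both P0 arrays (blue) lie below all P4 (red) and cultured (green) arrays, while the cultured replicates lie far apart.

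The 3 dim Nrg1 probe sets did not show this order of the 3 groups. M92430_at read 27.9 and 25.2 at P0, 21.7 and 19.1 at P4, and 21.9 and 34.0 in culture, so P4 lay slightly below P0. Its log2 change was -0.29 (SE 0.29, 95% interval -0.94 to 0.37, limma adjusted p = 0.764). U02316_s_at read 2.7 and 7.8 at P0, 11.5 and 8.0 at P4, and 1.4 and 8.1 in culture, so that both P4 arrays were above P0 but in the range of the unspiked controls. U02318_at lay between 1.1 and 4.9, and neither of these 2 was tested. Across the 6 arrays, which fall into 3 groups, the 6 pairs among the 4 bright probe sets correlated at 0.876 to 0.953 on the log2 scale. M92430_at correlated with the same 4 at -0.22 to 0.16. The gene has several transcript forms, and the annotation used here names only the gene, so the probe sets were not tied to forms.

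In culture, Nrg1 on the bright probe sets depended on the array. Cultured replicate 2 read 1.64 to 2.07 times cultured replicate 1, whereas the P4 replicates differed by at most 1.14 times. Against P0, the log2 changes were 1.06 for U02315_at (SE 0.29, limma adjusted p = 0.0682), 0.97 for U02322_s_at (adjusted p = 0.0886), 0.92 for U02320_s_at (adjusted p = 0.109) and 0.65 for U02315_g_at (adjusted p = 0.271). No tested member passed between cultured and P0 ovaries. In that comparison 5.43% of all tested probe sets were called, 3.48% higher and 1.95% lower. Leaving out cultured replicate 1, the array with the lower readings, brought U02315_at past the threshold (log2 change 1.47, adjusted p = 0.0471). Without cultured replicate 2 that change was 0.66 (adjusted p = 0.282). Against P4 the log2 changes were -0.15, -0.33, -0.62 and -0.11 in the same order, with adjusted p values of 0.901, 0.707, 0.398 and 0.931. The 95% interval for U02320_s_at ran from -1.27 to 0.04, so a level in culture under that of P4 was not shown. No tested member passed here, where 2.78% of all tested probe sets were called, 2.16% higher and 0.621% lower.

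**Figure D2:**
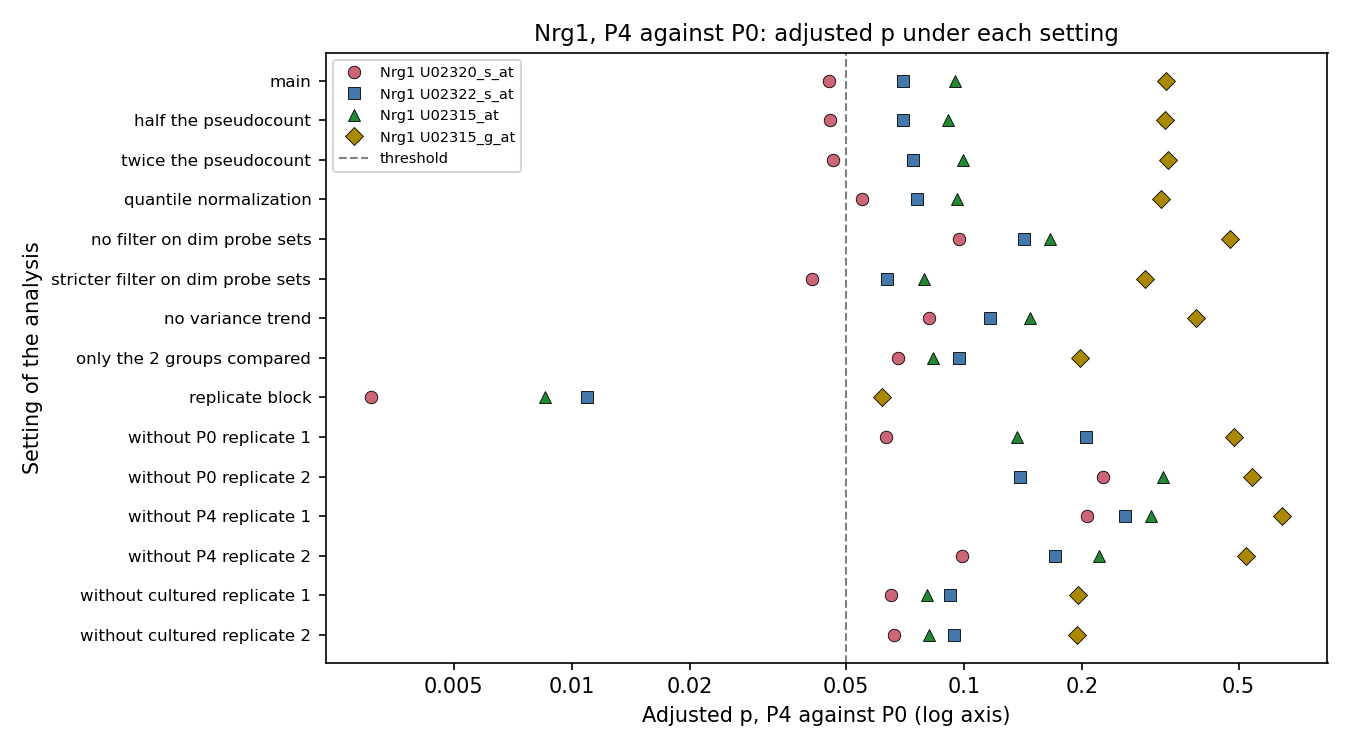
Adjusted p (x axis, log scale) of the 4 bright Nrg1 probe sets for P4 against P0 under each setting of the analysis (y axis), with the threshold of 0.05 dashed. U02320_s_at (circles) lies left of the threshold in the main analysis, with either other pseudocount, with the stricter filter and with the replicate block, and right of it in the other 10 settings.

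Ovaries are mixtures, and in whole tissue more cells of a type and more RNA per cell cannot be told apart. The summed intensity of the 6 oocyte markers was 1306 to 1357 at P0, 4013 to 4339 at P4 and 3177 to 3277 in culture. The group means of every bright Nrg1 probe set had this order, but only on U02320_s_at did all groups stay apart. On U02322_s_at, U02315_at and U02315_g_at P4 and cultured arrays overlapped. The order of the oocyte sum was carried by the zona pellucida genes Zp1, Zp2 and Zp3. These 3 rose against P0 at P4 and in culture, and the other 3 passed in no comparison. Without single arrays, Zp2 kept both calls. Zp1 lost the call at P4 without P0 replicate 2 or P4 replicate 1 (highest limma adjusted p = 0.0759), and Zp1 and Zp3 lost those in culture without any 1 of the P0 or cultured arrays (highest 0.104 and 0.167). Of the other 3 oocyte markers, the germ cell helicase gene Ddx4 read 241.0 and 159.9 at P0, 193.9 and 206.6 at P4, and 139.6 and 171.5 in culture. Kit, an oocyte receptor, had its highest reading at P4. The connexin gene Gja4 read 119.1 and 138.5 at P0, 218.3 and 214 at P4, and 181.1 and 440.5 in culture. All P4 and cultured readings of Gja4 stood above both at P0, without a call. The 8 granulosa and pregranulosa markers summed to 1561 to 1587 at P0, 2419 to 3524 at P4 and 901 to 993 in culture. These sums were made up mostly of Inha and Fst, which moved in opposite ways from P0 to P4. Inha went from 238 and 394.7 to 1970.3 and 1349.1, and Fst from 1010.6 and 813.9 to 560.3 and 407.1. Of 7 tested, 2 were called higher at P4 than at P0, beside 0.85% of all tested probe sets. In culture 1 was lower than at P0, beside 1.95%, and 3 were lower than at P4, beside 0.621%. The 7 measured Schwann cell and nerve markers, cells in which neuregulin signalling is best known, summed to 921 to 1122, 910 to 1149 and 974 to 1021, sums made up mostly of Pmp22 and Ngfr. One of them was called, higher in culture than in either other group: S100b, a calcium-binding protein of glia, read 13.0 and 7.0 at P0, 13.2 and 20.6 at P4, and 123.2 and 193.6 in culture. Its log2 change was 3.22 against P0 (limma adjusted p = 0.000538) and 2.74 against P4 (adjusted p = 0.00177), and both calls held without each array. Both S100b readings at P0 were under 20. Other markers of the list did not rise in culture: Mbp, Nefl, Pmp22 and Gap43 read lower on both cultured arrays than on both P0 arrays, without a call. Ngfr overlapped between these groups. Sox10, a transcription factor of Schwann cells, lay under 20 on every array. In the smooth muscle list, all P4 and cultured arrays stood above both P0 arrays for Myh11, Cnn1, Tagln and Tpm2, though not for Acta2 and Des. At P4, 18.6% of all tested probe sets were likewise higher than P0 without overlap. Between culture and P0, 50.4% did not overlap, in either direction. The sums of this list overlapped, at 643.7 to 1005.8 at P0, 972.6 to 1284.5 at P4 and 659.7 to 1352.7 in culture. No gene of this list was called. The part of the cell types of these lists in the Nrg1 readings was not tested.

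Erbb2, the common partner of the other receptors, exceeded 20 on all 6 arrays and passed in no comparison. It read 54.7 and 45.7 at P0, 48.6 and 40.1 at P4, and 46.6 and 42.9 in culture. The ranges of all 3 groups overlapped. The log2 change at P4 was -0.15 against P0 (95% interval -0.69 to 0.38, limma adjusted p = 0.863). In culture it was -0.14 against P0 (-0.68 to 0.40, adjusted p = 0.802) and 0.01 against P4 (-0.52 to 0.55, adjusted p = 0.988). The last of these was -0.0075 with quantile normalization.

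The 2 probe sets of Erbb3, the neuregulin receptor with the weak kinase, ordered P0 and P4 in opposite ways, and neither passed. U29339_at read 39.4 and 32.2 at P0, 18.4 and 19.1 at P4, and 20.5 and 30 in culture. Both P0 arrays were highest and both P4 arrays lay under 20. The log2 change at P4 was -0.71 (SE 0.29, 95% interval -1.36 to -0.07, limma adjusted p = 0.323), with -0.85 and -0.57 in batches A and B. U52530_s_at read 13.0 and 23.2 at P0, 28.7 and 26.8 at P4, and 20.9 and 18.8 in culture. Here both P4 arrays were highest, with a log2 change of 0.49 (SE 0.31, 95% interval -0.21 to 1.18, adjusted p = 0.573) and 0.81 and 0.16 in the batches. On the log2 scale the pair correlated at -0.83 over the 6 arrays, so no direction can be given for the gene. In culture, the changes against P0 were -0.41 (adjusted p = 0.464) and 0.12 (adjusted p = 0.871).

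The EGF receptor gene Egfr had 1 probe set, M37394_at, under the filter. It read 12.0 and 28.1 at P0, 10.5 and 15.0 at P4, and 5.4 and 8.4 in culture. Only P0 replicate 2 exceeded 20, and both cultured arrays were below the other 4. When all probe sets were tested without the filter, the log2 change for cultured against P0 was -0.87 (SE 0.34, limma adjusted p = 0.246), and with nearly all readings under 20 no fold is given. The fourth receptor of the family, Erbb4, is no member here. Its 2 probe sets lay between 0.7 and 6.3 on all arrays.

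Tgfa, which encodes the ligand TGF-alpha, exceeded 20 on 4 of 6 arrays. It read 28.7 and 10.6 at P0, 26.6 and 33.3 at P4, and 22.6 and 15.9 in culture. All other Tgfa readings except that of P4 replicate 2 lay between those at P0. Its log2 change at P4 was 0.54 (SE 0.37, 95% interval -0.30 to 1.38, limma adjusted p = 0.612), with -0.09 in batch A and 1.16 in batch B. That in culture against P0 was 0.05 (adjusted p = 0.961).

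Egf on U04842_at read 14.2 and 18.7 at P0, 10.1 and 17.1 at P4, and 11.1 and 22.1 in culture, above 20 on 1 array only. Its 3 groups overlapped, and the log2 changes lay between -0.19 and 0.17, none past the threshold (lowest limma adjusted p = 0.889). The second Egf probe set, X12748cds_s_at, lay between 3.1 and 6.3 and was not tested.

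Hbegf, the heparin-binding ligand, read 18.6 and 8.3 at P0, 15.4 and 3.8 at P4, and 20.1 and 21.0 in culture on L05489_at. Both cultured arrays were above the other 4 and just above 20. Without the filter its log2 change in culture was 0.46 against P0 (limma adjusted p = 0.628) and 0.79 against P4 (adjusted p = 0.499). Its other probe set, rc_AI059540_at, lay between 2.6 and 4.6. Areg, which encodes amphiregulin, read 7.3 and 15.0 at P0, 15.0 and 13.3 at P4, and 7.4 and 15.6 in culture, never above 20. At these readings no difference in Areg, Hbegf or Egf was detected, which does not show that their levels were equal.

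**Figure D3:**
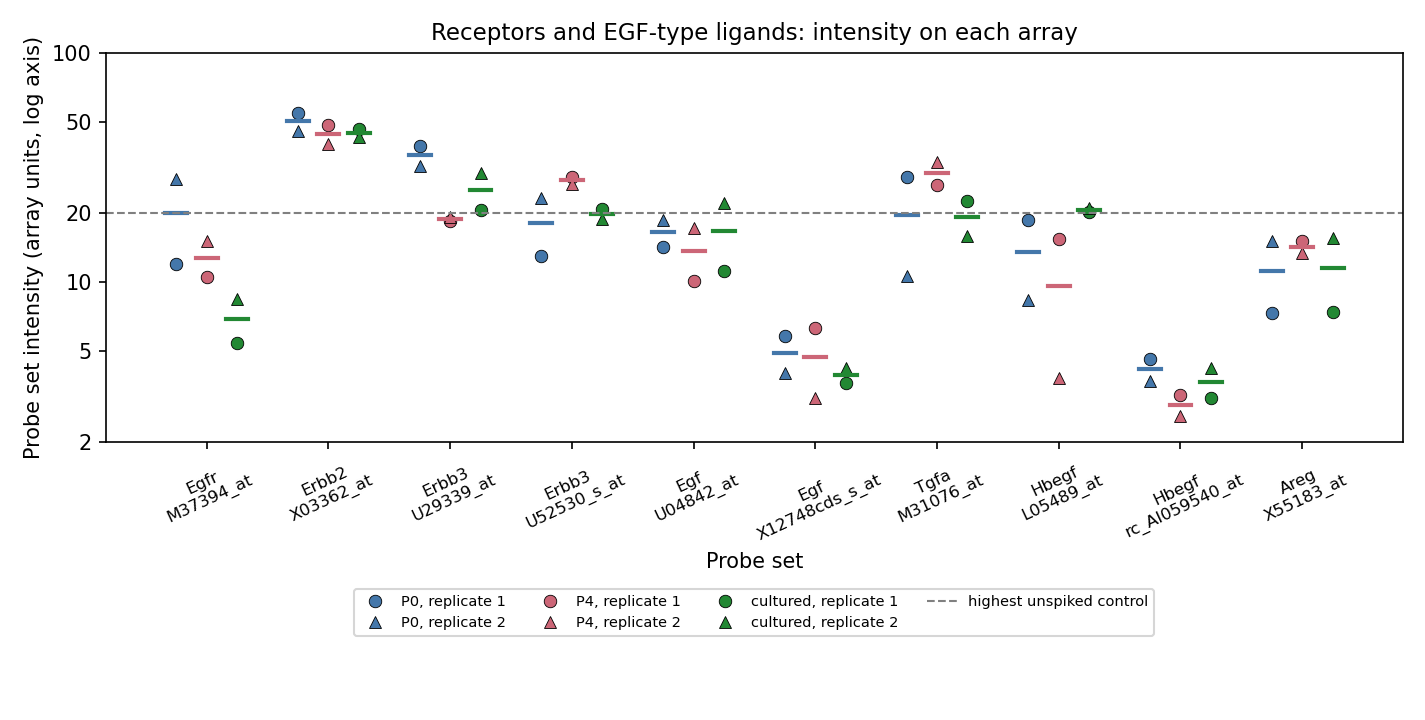
Intensity of the 10 probe sets of the receptors and EGF-type ligands (x axis) on each array, in array units on a log axis, with symbols as circles for replicate 1, triangles for replicate 2, bars for group means and a dashed line at 20. Erbb2 is the only gene above the line on all 6 arrays, and its groups overlap. The 2 Erbb3 probe sets order P0 (blue) and P4 (red) in opposite ways.

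Groups of 2 arrays often fail to overlap. Between P4 and P0 this held for 7 of the 10 tested members, 5 higher and 2 lower, against 44.2% of all tested probe sets, 18.6% higher and 25.7% lower. Between cultured and P0 ovaries it held for 5 of 10 against 50.4%, and between cultured and P4 for 5 of 10 against 43.6%. The median log2 change of the 10 was 0.51, 0.09 and -0.13 in these comparisons, beside -0.05, -0.08 and -0.04 over all tested probe sets. Nrg1 has 5 of these 10 probe sets, so these counts weigh that gene most.

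**Figure D4:**
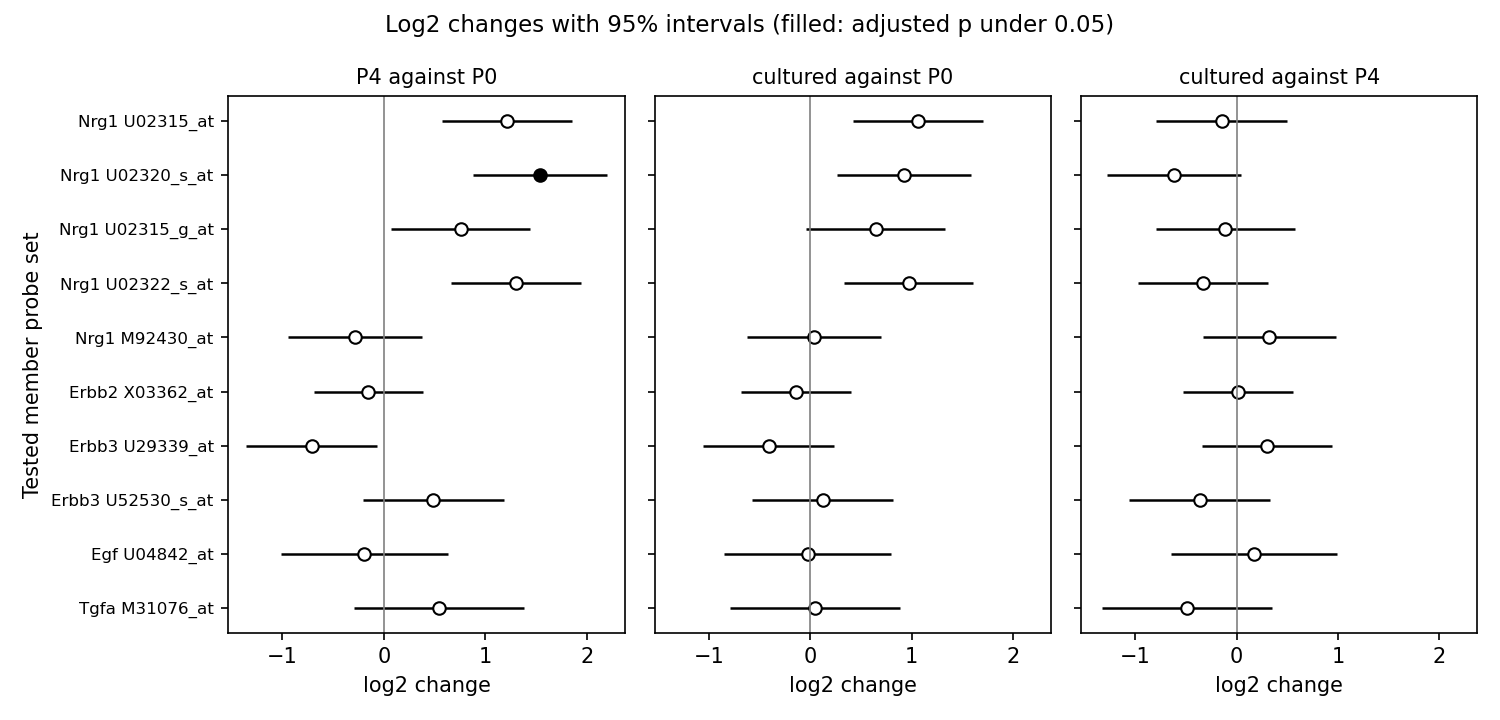
Log2 change (x axis) with its 95% interval for the 10 tested probe sets (y axis) in the 3 comparisons, from the limma fit to all 6 arrays. Only Nrg1 U02320_s_at for P4 against P0 is filled, for an adjusted p under 0.05, and the 4 bright Nrg1 probe sets lie right of 0 against P0 in both P4 and cultured ovaries.

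No other gene of the pathway passed between P0 and P4. Of 104 further genes in 7 lists, 62 were on the array and 55 were tested, and between P4 and P0 none of the 55 passed (1.08% of all probe sets did). Between cultured and P0 ovaries 2 of 55 rose and none fell, where 3.48% of all tested probe sets were called higher, a share near that of the lists. Between cultured and P4 ovaries 3 of 55 rose and none fell, where 2.16% were called higher. Of the other ErbB ligands and receptors only Nrg2, a neuregulin paralogue, was tested. It read 18.9 and 25.8 at P0, 19.2 and 24.5 at P4, and 24.5 and 41.2 in culture, with log2 changes of -0.02, 0.41 and 0.43 in the 3 comparisons (lowest limma adjusted p = 0.510). None of 4 sheddase and ligand processing genes passed. The smallest p in that list was that of Timp3, an inhibitor of the ligand-releasing proteases, with a log2 change of -1.10 for cultured against P0 (adjusted p = 0.0929).

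In the adaptor and RAS-MAPK list, 1 of 15 tested genes rose in culture. Ptpn6, a phosphatase best known from blood cells, read 12.7 and 9.6 at P0, 8.9 and 25.3 at P4, and 112.6 and 65.5 in culture on U77038_g_at. It rose by at least 4.45-fold against P0, with the P0 arrays set to 20 (log2 change 2.32, limma adjusted p = 0.0105). Against P4 it rose by 2.00 on the log2 scale (adjusted p = 0.0240). With a block on replicate number, which is no shared batch for the cultured arrays, the adjusted p against P4 was 0.0675. Its dimmer probe set U77038_at had log2 changes of 1.25 and 1.64 that did not pass (adjusted p = 0.140 and 0.0962). The call against P0 ended without P0 replicate 2 (adjusted p = 0.0502) or cultured replicate 1 (0.0959). That against P4 ended without P4 replicate 1 (0.134), cultured replicate 1 (0.192) or cultured replicate 2 (0.0660), and without the filter (0.0598). The median of the list was 0.16, -0.07 and -0.14 in the 3 comparisons. In the list of early target genes, 1 of 11 tested rose in culture against P0 (Plaur) and 2 rose against P4 (Plaur and Ier3), beside the 3.48% and 2.16% called higher over all tested probe sets. Plaur, the urokinase receptor, read 14.3 and 15.2 at P0, 11.2 and 11.1 at P4, and 59.8 and 48.1 in culture. It rose by at least 2.70-fold against both P0 (limma adjusted p = 0.0196) and P4 (adjusted p = 0.0112). The former call ended without either P0 or either cultured replicate (highest adjusted p = 0.112), and the latter without either P4 replicate or cultured replicate 1 (highest 0.0973). Ier3, an early response gene, rose by 1.16 against P4 on X96437mRNA_g_at (adjusted p = 0.0480) but had a log2 change of 0.32 on X96437mRNA_at (adjusted p = 0.647). Against P0 neither probe set passed, with log2 changes of 0.97 (adjusted p = 0.0664) and -0.06 (adjusted p = 0.915). Its call ended without P4 replicate 1 (adjusted p = 0.239), cultured replicate 1 (0.192) or cultured replicate 2 (0.260), with the pseudocount of 3.85 (0.0505), with quantile normalization (0.0789), without the filter (0.0721) and without a variance trend (0.0833). Some macrophage and leukocyte markers also read higher in culture. The 6 measured markers summed to 236 to 338 at P0, 128 to 182 at P4 and 670 to 1258 in culture, and 3 of them rose in culture against each other group. Ptprc did not follow, at 34.2 and 23.2 at P0, 29.6 and 41.6 at P4, and 38.6 and 22.8 in culture. Csf1r exceeded 20 on cultured replicate 1 only (20.9). The part of macrophages and leukocytes in the changes of Ptpn6, Plaur and Ier3 was not tested.

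None of 12 PI3K-AKT, 5 JAK-STAT and 7 receptor turnover and feedback genes passed in any comparison. For P4 against P0 the smallest p values in these lists were those of Akt2, a survival kinase (log2 change -0.26, limma adjusted p = 0.679), Jak2, a cytoplasmic kinase (-0.56, adjusted p = 0.338), and Errfi1, a feedback inhibitor of the EGF receptor (-0.30, adjusted p = 0.734). In culture the lowest adjusted p against P0 in these lists was that of Jak2 (log2 change -0.52, adjusted p = 0.241). Against P4 the smallest p values in the 3 lists were those of Gsk3a, a kinase inhibited by AKT (-0.53, adjusted p = 0.322), Stat5a, a transcription factor (0.61, adjusted p = 0.573), and Hgs, which sorts internalised receptors (0.28, adjusted p = 0.718).

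**Figure D5:**
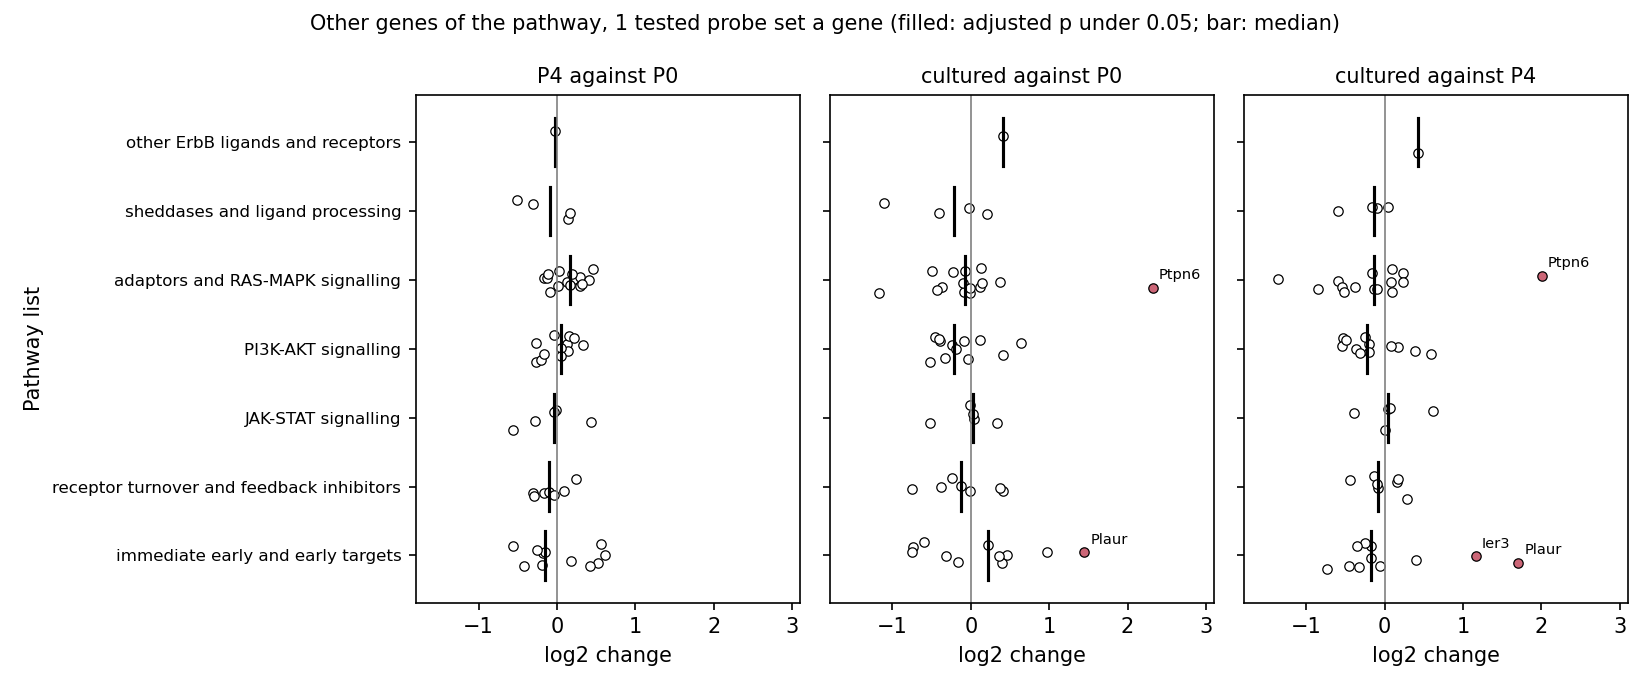
Log2 change (x axis) of each tested gene of the 7 pathway lists (y axis) in the 3 comparisons, 1 point a gene, with a bar at the list's median. Filled points have an adjusted p under 0.05: none for P4 against P0, Ptpn6 and Plaur for cultured against P0, and these and Ier3 for cultured against P4.

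Genes whose log2 values followed those of the members most closely over the 6 arrays were listed by Pearson correlation, as a description only, since 6 arrays in 3 groups let many probe sets correlate highly. Nearest to Nrg1 on U02315_at were Alkbh2 (r = 0.995), E2f5 (r = 0.992) and Or1f20 (r = 0.991). E2f5, a transcription factor of the cell cycle, had mean intensities of 68.7 at P0, 115 at P4 and 114 in culture. Nearest to Erbb2 were Hmgb2 (r = 0.989), Bdnf (r = 0.985) and Ywhae (r = 0.974), and to Erbb3 on U29339_at Slc5a1 (r = 0.988), Rmdn3 (r = 0.987) and Tpp2 (r = 0.984). Egfr had no tested probe set and was left out of this listing.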

How the data were processed

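The deposited values are linear probe set intensities that the authors had already scaled: the mean after trimming 2% at each end was 125.2 on all 6 arrays. The algorithm is not given in the sources used here, and per the labels RNA was labelled with biotin by the manufacturer's procedures. Members and gene lists were chosen with earlier results of these data known. A pseudocount of 7.7 (20th percentile of all values) was added before log2, 59 control probe sets were left out, and 2622 under the 30th percentile of mean log2 were filtered. Symbols came from the array's annotation, with 7018 probe sets of 1 symbol, 308 of several and 1473 of none. Of the first, 6994 matched a RefSeq rat gene table by gene number. One limma 3.58.1 model (R 4.3.3) with 3 group means and a variance trend was fitted to all 6 arrays and tested on simulated data. The 3 comparisons were two-sided, with Benjamini-Hochberg adjustment over 6118 probe sets and calls under 0.05. The median standard error was 0.259, and the number of arrays limits the precision. An exact permutation test of 2 against 2 cannot go below p = 0.333. All member probe sets were named. In each pathway list the called genes, up to 4, or else the gene of smallest p, were named by rule, on the brightest tested probe set, and shown where they bear on the text. The 3 nearest genes by correlation were named for the brightest tested probe set of each of Nrg1, Erbb2 and Erbb3. Changes of at least N-fold set arrays under 20 to 20, a level chosen after seeing the data. Of 9 marker lists, the oocyte, granulosa, Schwann cell, macrophage and smooth muscle lists stand in the text with their sums. The theca, endothelial and smooth muscle lists had no member called in any comparison. The stroma list had 1 lower in culture than at P0. The surface epithelium list had 2 higher in culture than in each other group. P0 and P4 replicates of equal number share a chip identifier batch, and their deviations from the group means correlated at 0.33 across probe sets. Cultured arrays share none, and their deviations correlated at -0.13 and -0.05 with those of P0 and P4.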

Additional observations from a re-analysis of the deposited data

How the results depend on the processing

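Under 14 alternatives per comparison, the 10 tested member probe sets kept direction and side of the threshold in 376 of the results, lost the call in 10 (all Nrg1 U02320_s_at for P4 against P0), gained one in 3 and changed sign in 16, none of them called. For P4 against P0 the 66 calls over all probe sets became 23 without the filter, 29 without a variance trend, 23 with only the groups compared and 314 with the replicate block, and 15 to 55 without single arrays. The 1 member called became 0 with quantile normalization, without the filter, without the trend and with only the groups compared, 3 with the replicate block, and 0 without any single array. Without single arrays, the counts over all probe sets were 90 to 353 (main 332) for cultured against P0 and 86 to 193 (main 170) for cultured against P4, and the members called were 0 to 1 for the former. For P4 against P0 the replicate block was fitted to the P0 and P4 arrays only, where it equals the chip identifier batch. In the comparisons with culture it was fitted to all arrays by replicate number, which is no shared batch for the cultured arrays. There it changed no member's call. With quantile normalization the Egf change for cultured against P0 turned to 0.060 and that of Erbb2 for cultured against P4 to -0.0075. Without single arrays, changes that switched sign ranged as follows. Egf U04842_at ranged from -0.43 to 0.045 for P4 against P0, -0.36 to 0.31 for cultured against P0 and -0.16 to 0.50 for cultured against P4. For cultured against P0, Nrg1 M92430_at ranged from -0.21 to 0.29, Erbb3 U52530_s_at from -0.17 to 0.41 and Tgfa from -0.44 to 0.55. For cultured against P4, Nrg1 U02315_at ranged from -0.55 to 0.26, U02315_g_at from -0.59 to 0.37 and Erbb2 from -0.10 to 0.13. The stricter filter left out the dimmer members, and the cause of these shifts was not tested beyond the smaller number of arrays. With 2 arrays a group and most of these ligands near the unspiked controls, small changes were not detectable.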
